A study of Mus musculus with 3 samples.

Results

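The expression of 10 genes of border macrophages was followed in single cells of the mouse hippocampus: the lectin receptors Mrc1, Clec10a and Cd209f, the scavenger and uptake receptors Cd163, Stab1, Lyve1 and Folr2, and the companion genes Cbr2, Pf4 and F13a1. They were chosen by symbol and are 10 of the 31053 genes listed in the deposited tables. The cells came from both hippocampi of mice of the genotype Cx3cr1CreERT2/+, Rosa26tdTomato/+ and NestinTK-eGFP/+, and were collected by flow cytometry as tdTomato+ cells after tamoxifen at 100 mg/kg on 4 days. Cre activity thus followed Cx3cr1, a gene of microglia and of other macrophages, and every sample carried the same alleles and treatment. The labels give 3 runs of 1 group from 12 animals, male and female, with no age and no statement of which animal went into which run. The run is therefore the replicate, and no p-value covers the spread between animals. The edgeR p-values below rest on counting error and on a spread between runs that was pooled over genes. They do not measure the spread of a single gene between its 3 runs.

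Border macrophages sit in the meninges, around vessels and in the choroid plexus, and are known for taking up material from fluid with receptors of this kind. C-type lectins bind sugars on glycoproteins and microbes, and scavenger receptors clear modified or cell-free proteins and lipoproteins. Some border macrophages carry MHC class II, which presents peptides to T cells, and others carry Lyve1 and little class II. Microglia, the macrophages inside the brain tissue, are marked by P2ry12, a receptor for nucleotides.

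Cells were kept with at least 1000 UMIs (unique molecular identifiers, each a counted RNA molecule), 500 or more genes and no more than 10% mitochondrial UMIs. This left 6993, 6720 and 6078 cells in runs 1, 2 and 3, with medians of 4425, 3438 and 3696 UMIs. Runs shared 7 or 8 kept barcodes pairwise. Border cells were defined without the 10 genes, by at least 3 of 10 other macrophage genes, among them Ms4a7 or Dab2, with more UMIs than 5 microglia genes together. The gate held 45, 33 and 56 cells, 134 in all. Cells that met the same panel but had no such excess over the microglia genes are called mixed (382, 244 and 260 cells), and cells with a P2ry12 UMI in neither gate are called P2ry12-positive (6533, 6396 and 5712). Most cells carried microglia markers, and the 8 listed microglia genes summed to 26240, 35840 and 28230 CPM (UMIs scaled to the same total for each population) in P2ry12-positive cells, against 4489, 2987 and 2173 CPM in border cells. The gates use 5 of these 8 genes, so this direction was largely set by the gates.

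The 10 genes were detected together in border cells. The middle border cell held 7, 6 and 7 of the 10 genes in runs 1, 2 and 3, whereas the middle P2ry12-positive cell held 1 in each run, and Stab1 alone of the 10 was frequent there. Of the 134 border cells, 114 had at least 3 of the genes and 19 had all 10. No P2ry12-positive cell among 18641 had 8 or more, and 10 had at least 3. That group leaves out mixed cells, which met the macrophage panel and had medians of 20, 18.5 and 15 P2ry12 UMIs. Of the 886 mixed cells, 58 had at least 3 of the genes, 24 had 8 or more and 12 had all 10. Among border cells 50 had 8 or more. Border cells had median depths of 5461, 3887 and 4253 UMIs, against 4392, 3426 and 3675 UMIs in P2ry12-positive cells.

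**Figure D1:**
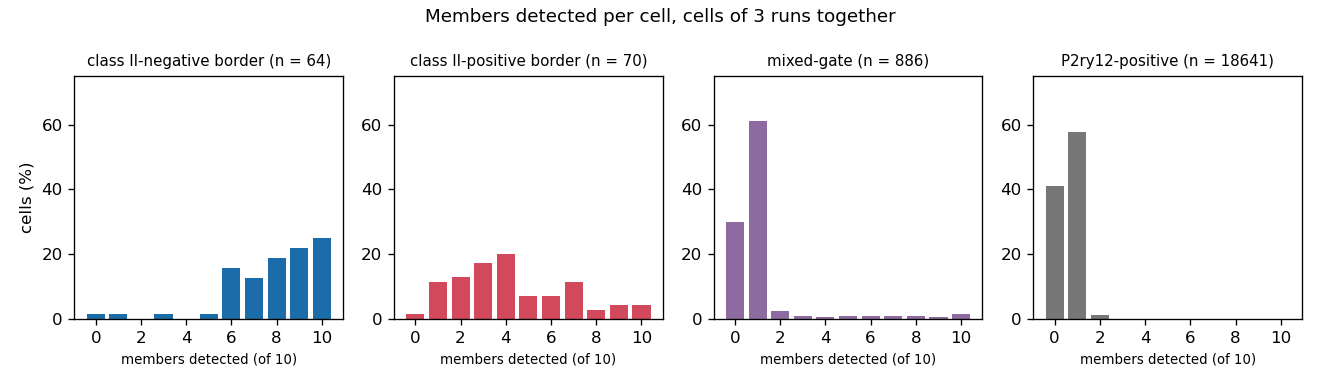
Number of the 10 genes detected per cell (x axis) against the percent of cells (y axis), for 4 populations with the cells of 3 runs together. Most class II-negative border cells lie at 6 or more genes, class II-positive border cells spread around 4, and most mixed and P2ry12-positive cells lie at 0 or 1.

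Mrc1 (ENSMUSG00000026712, GRCm38 chromosome 2, 14229392 to 14332057) encodes the mannose receptor, an endocytic lectin. It was detected in 97.8%, 81.8% and 91.1% of border cells, at 1397, 933 and 1899 CPM. In P2ry12-positive cells it was detected in 1.70%, 0.813% and 1.14%, at 4.32, 2.60 and 3.68 CPM. The groups did not overlap, and Mrc1 was 8.82 ± 0.18 higher in border cells on the log2 scale (SE, n = 3 runs, adjusted p below the smallest value the software writes, edgeR quasi-likelihood fit, Benjamini-Hochberg). Over populations its level ran from 2548 ± 469 CPM (SD, n = 3) in class II-negative border cells through 641 ± 306 in class II-positive border cells, 86.8 ± 94.6 in mixed cells and 41.0 ± 24.9 in the remaining cells to 3.53 ± 0.871 in P2ry12-positive cells. Mixed and remaining cells did not differ beyond their spread.

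The other lectins were found in fewer border cells. Clec10a (ENSMUSG00000000318, chromosome 11, 70156197 to 70170834) encodes a macrophage lectin for galactose-type sugars, and was detected in 40.0%, 39.4% and 51.8% of border cells. Cd209f (ENSMUSG00000051906, chromosome 8, 4102787 to 4105835) belongs to the DC-SIGN family of lectins, and was detected in 33.3%, 24.2% and 37.5%. In P2ry12-positive cells both were at or under 0.105% in every run, and neither had a UMI in run 2, which allows a share of up to 0.0469%.

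Among the uptake receptors, Cd163 (ENSMUSG00000008845, chromosome 6, 124304656 to 124330527), which takes up haemoglobin bound to haptoglobin, was detected in 68.9%, 45.5% and 57.1% of border cells. Lyve1 (ENSMUSG00000030787, chromosome 7, 110850607 to 110863239), a hyaluronan receptor, was detected in 35.6%, 30.3% and 42.9%. Folr2 (ENSMUSG00000032725, chromosome 7, 101839988 to 101857194), the folate receptor of macrophages, was detected in 37.8%, 39.4% and 44.6%. Over the whole gate the SD of these shares over 3 runs was 3.59 percentage points for Folr2 and 11.7 points for Cd163. Within class II-negative and class II-positive border cells it was 14.55 and 15.35 points for Folr2, against 12.92 and 15.32 points for Cd163. The smaller spread of Folr2 thus held for the whole gate only. In P2ry12-positive cells the mean shares were 0.0490% for Cd163, 0.0256% for Lyve1 and 0.124% for Folr2.

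Pf4 (ENSMUSG00000029373, chromosome 5, 90772435 to 90773383), a chemokine also stored in platelets, was detected in 95.6%, 81.8% and 89.3% of border cells, at 2645, 2358 and 3132 CPM. It was at 0.982, 0.606 and 1.08 CPM in P2ry12-positive cells, with 30, 14 and 24 UMIs in all. Platelet genes other than Pf4 were at or near 0 in border cells: the list of 5 had 4, 0 and 1 UMIs, and Itga2b, Gp1bb and Treml1 had none in any run. F13a1 (ENSMUSG00000039109, chromosome 13, 36867178 to 37050244), the transglutaminase chain of coagulation factor XIII, was detected in 66.7%, 51.5% and 76.8%. Cbr2 (ENSMUSG00000025150, chromosome 11, 120729489 to 120732114), a carbonyl reductase, was detected in 55.6%, 45.5% and 57.1%.

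Stab1 (ENSMUSG00000042286, chromosome 14, 31139013 to 31168641) stood apart. It encodes stabilin-1, a scavenger receptor for modified lipoproteins, and it was detected in P2ry12-positive cells as well: the share was 67.8% for run 1 (exact 95% interval 66.7% to 68.96%), 51.2% for run 2 (49.97% to 52.4%) and 55.2% for run 3 (53.9% to 56.4%). In border cells the shares were 91.1%, 93.9% and 82.1%. Levels were 1510, 1137 and 1776 CPM in border cells against 288, 216 and 233 CPM in P2ry12-positive cells, a log2 difference of 2.79 ± 0.14 (SE, n = 3 runs, adjusted p = 6.03e-88, edgeR). With every cell thinned to 1000 UMIs the P2ry12-positive shares were 25.5%, 19.5% and 20.7%. P2ry12-positive cells held 84.3%, 91.7% and 86.1% of all Stab1 UMIs in the kept cells. Of the UMIs of all genes and barcodes they held 30554051 of 34140879, 23112294 of 24717907 and 22308818 of 24225612. Their Stab1 shares thus reflect the size of this population and show no excess of Stab1 in it.

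**Figure D2:**
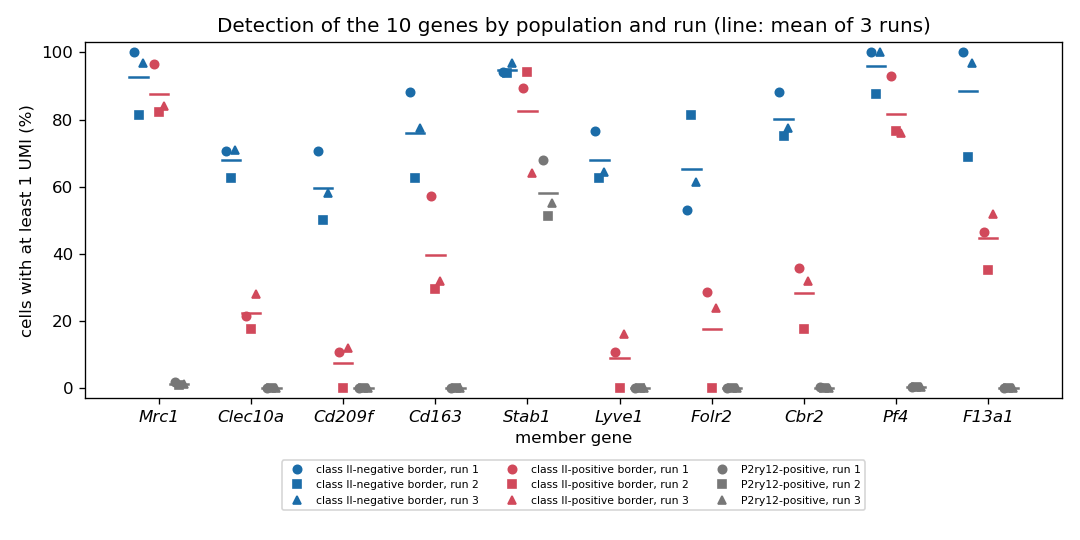
Percent of cells with at least 1 UMI (y axis) for each gene (x axis) in class II-negative border, class II-positive border and P2ry12-positive cells, with a marker per run and a line at the mean of 3 runs. P2ry12-positive cells lie near 0 for 9 genes and between 51.2% and 67.8% for Stab1.

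The 250 bases before the start of Stab1, Pf4 and F13a1 are shown because Stab1 is the gene shared with P2ry12-positive cells while Pf4 and F13a1 are not. They are RefSeq sequences of GRCm38.p6, written 5′ to 3′ on the gene's strand, at chr14:31168642-31168891 (minus strand) for Stab1, chr5:90772185-90772434 (plus strand) for Pf4 and chr13:37050245-37050494 (minus strand) for F13a1. Capitals mark GAGGAA or its reverse complement TTCCTC, the core bound by the macrophage factor PU.1, and TGCTGA or its reverse complement TCAGCA, the core bound by Maf factors. The motifs do not overlap each other in these windows.
Stab1: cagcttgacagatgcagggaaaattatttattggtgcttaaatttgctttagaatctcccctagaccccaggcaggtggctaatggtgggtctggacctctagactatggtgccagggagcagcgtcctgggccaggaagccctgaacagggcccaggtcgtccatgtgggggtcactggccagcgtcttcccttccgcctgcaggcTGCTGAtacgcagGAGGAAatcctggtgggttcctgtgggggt
Pf4: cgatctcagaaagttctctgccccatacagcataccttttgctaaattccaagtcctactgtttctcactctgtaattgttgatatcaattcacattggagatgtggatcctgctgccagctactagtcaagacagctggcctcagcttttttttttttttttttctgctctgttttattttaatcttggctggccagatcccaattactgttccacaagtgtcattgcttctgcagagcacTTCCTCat
F13a1: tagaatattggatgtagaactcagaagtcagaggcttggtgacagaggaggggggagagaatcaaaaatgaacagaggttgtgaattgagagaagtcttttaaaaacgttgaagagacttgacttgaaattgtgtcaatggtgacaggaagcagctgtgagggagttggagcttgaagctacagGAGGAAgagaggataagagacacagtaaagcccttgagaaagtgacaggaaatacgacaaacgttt
Of the members, 8 of 10 matched an entry of the RefSeq table (not Lyve1 and Clec10a). GAGGAA stood in the windows of 5 of the 8 (Mrc1, Stab1, Cbr2, Pf4 and F13a1), with 3 copies for Mrc1, against 23.3% of 32851 promoter windows of the same length. TGCTGA stood in 2 of the 8 (Stab1 and Folr2), against 16.1%. These are matches of letters, not measured binding.

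In the comparison of border with P2ry12-positive cells, edgeR tested 11406 genes and called 10.2% of them higher and 10.4% lower in border cells at an adjusted p under 0.05. All 10 members were called higher, by 2.79 (Stab1) to 12.82 (Lyve1) on the log2 scale, and each was higher in 3 of 3 runs. Their number is no support in itself, since only Mrc1 and Stab1 had enough UMIs in P2ry12-positive cells to be tested on that side alone. Leaving out the border cells with a P2ry12 UMI (20 of 45, 13 of 33 and 28 of 56), all 10 were still called higher. In that setting 791 of 11273 genes tested were called higher, and the same limit applies to the count of members.

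Of the other scavenger receptors and lectins listed for comparison, 8 of 15 and 23 of 31 could be tested. Among the scavenger receptors 4 were higher and 2 lower in border cells, with a median log2 change of 1.55. Among the lectins 15 were higher and 2 lower, with a median of 4.37, against -0.19 over all genes tested. Of those called higher, 1 scavenger receptor and 6 lectins had enough UMIs in P2ry12-positive cells to be tested from that side alone, and the others, among them all 5 named next, entered only through border cells, so these counts and medians are no support. Clec4n, a lectin of the dectin family, was at 173 ± 42.7 CPM in border cells and 0.126 ± 0.166 in P2ry12-positive cells (SD, n = 3). Clec12a, an inhibitory lectin, was at 279 ± 67.1 against 0.537 ± 0.856 CPM. The DC-SIGN family members Cd209b and Cd209g were at 69.01 ± 32.3 and 144 ± 35.8 CPM in border cells, and the ficolin Fcna at 107 ± 27.4. In P2ry12-positive cells Cd209b had no UMI, Cd209g was at 0.0294 ± 0.0254 CPM and Fcna at 0.0651 ± 0.0649. Lower in border cells were the sialic acid-binding lectins Siglecf (log2 change -3.83 ± 0.95) and Cd33 (-0.92 ± 0.17), the endocytic receptor Lrp1 (-1.18 ± 0.18) and the lysosomal receptor Scarb2 (-0.76 ± 0.20). Over all genes outside the members, Pla2g2d and Cd93 led with Cd209b, Cd209g and Fcna on the higher side, and Plpp1, A830008E24Rik, Adora3, Zeb1 and Upk1b led on the lower side.

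Within the border gate the 10 genes split with MHC class II. Class II-positive cells had at least 3 UMIs over H2-Aa, H2-Ab1, H2-Eb1 and Cd74. There were 28, 17 and 25 of them, and 17, 16 and 31 class II-negative cells. The class II UMIs ran without a gap at 3 and were counted in 4 ranges: 51 of 134 cells had none, 13 had 1 or 2, 16 had 3 to 19, and 54 had at least 20. The class II chaperone genes H2-DMa and H2-DMb1, which the split did not use, were higher in class II-positive cells by 3.38 ± 0.34 and 3.23 ± 0.35 on the log2 scale (SE, n = 3 runs). They were the only 2 of the 6 class II genes listed for this check that could be tested, and both entered only through class II-positive cells, where they were high.

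Class II-negative cells held more of the 10 genes. Their medians were 9, 8 and 8 genes in runs 1, 2 and 3, against 4, 3 and 3 in class II-positive cells. The class II-negative cells were the shallower ones in each run, with median depths of 4933, 2556 and 4153 UMIs against 5552, 5367 and 4729. Thinned to 1000 UMIs, the medians were 6, 5 and 6 against 2, 1 and 1 genes. Of the 19 cells with all 10 genes, 16 were class II-negative.

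**Figure D3:**
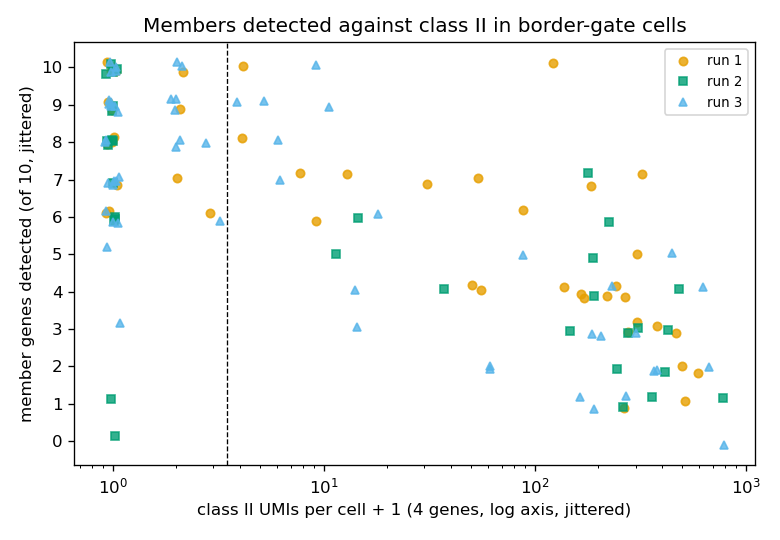
Class II UMIs per border cell plus 1 (x axis, log scale) against the number of the 10 genes detected (y axis), with a marker per cell and a colour per run; both are jittered and the dashed line marks the split at 3 UMIs. Of 64 cells left of the line 50 had 7 or more genes, and of 54 cells with at least 20 class II UMIs 6 had.

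At full depth, with the cells of 3 runs together, Lyve1 was detected in 67.2% of the 64 class II-negative cells, in 37.5% of the 16 cells with 3 to 19 class II UMIs, and in 1.85% (1 cell) of the 54 cells with at least 20. Cd209f was at 59.4%, 31.3% and 1.85%. Clec10a went from 68.8% over 56.3% to 12.96%, and Folr2 from 64.1% over 50% to 11.1%. Cd163 was at 76.6%, 87.5% and 27.8%, and F13a1 at 90.6%, 87.5% and 33.3%. Cbr2 was at 79.7%, 68.8% and 18.5%. Mrc1 (93.8%, 100% and 85.2%), Pf4 (96.9%, 100% and 77.8%) and Stab1 (95.3%, 93.8% and 77.8%) were detected in most cells of all 3 ranges. The middle range held 16 cells, so its shares are coarse, cells of 1 run share a library, and differences between genes were not tested. Thinned to 1000 UMIs, Mrc1 was detected in 88.2%, 68.8% and 90.3% of class II-negative cells and in 42.9%, 11.8% and 40.0% of class II-positive cells of runs 1, 2 and 3.

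In summed counts, 1654 genes were tested between class II-positive and class II-negative border cells, and edgeR, with the run as a block, called 4.05% of them lower and 8.71% higher in class II-positive cells. All 10 members were called lower, each in 3 of 3 runs. The direction depends on the gate: with mixed cells counted as border cells all 10 changes turned positive, and 6 members passed as higher (Mrc1, Cd163, Stab1, Cbr2, Pf4 and F13a1, by 0.78 to 1.67 on the log2 scale, adjusted p from 1.88e-05 to 0.0101, edgeR). That setting compares other cells: the class II-negative sums grew from 17, 16 and 31 to 368, 250 and 282 cells. The class II-positive sums grew from 28, 17 and 25 to 59, 27 and 34 cells. Mixed cells had medians of 56, 47 and 46 UMIs of the 5 microglia genes, against 4, 2 and 2 in border cells. The gates use these 5 genes, so this order was largely set by them. In 17.4% of all genes tested the CPM of class II-positive cells lay below those of class II-negative cells without overlap, and this held for the 10 members. Of these, 5 (Mrc1, Stab1, Cbr2, Pf4 and F13a1) had enough UMIs in class II-positive cells to be tested from that side alone, and the other 5 entered through class II-negative cells, where they were high.

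Lyve1 was at 1176, 885 and 898 CPM in class II-negative cells of runs 1, 2 and 3 and at 150, 0 and 214 CPM in class II-positive cells, a log2 change of -2.78 ± 0.28 (SE, n = 3 runs, adjusted p = 7.02e-20, edgeR). Run 2 had no Lyve1 UMI among 86688 UMIs of its 17 class II-positive cells, a count of 0 that allows up to 17.6% of cells with one. Cd209f was at 1176, 686 and 977 CPM against 192, 0 and 300 CPM (-2.36 ± 0.28). A single cell gave 28 of the 32 Cd209f UMIs of class II-positive cells in run 1, and another gave 23 of 42 in run 3. For Lyve1 the highest single cell gave 14 of 25 UMIs in run 1 and 12 of 30 in run 3. The cells with 3 to 19 class II UMIs bear on these values, and they were left out in an alternative chosen after seeing the data. All 10 members were again called lower, among 91 of 1338 genes tested. Lyve1 changed by -5.20 and Cd209f by -6.88 on the log2 scale, each with 1 positive cell among the 54. Clec10a, at 372, 708 and 788 CPM against 102.0, 34.6 and 136 CPM, changed by -2.44 ± 0.33. Folr2, at 352, 907 and 394 CPM against 126, 0 and 122 CPM, changed by -2.22 ± 0.35. Lyve1, Cd209f, Clec10a, Folr2 and Cd163 were tested only because of their level in class II-negative cells, so their p-values are no support.

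Mrc1 was at 2403, 2168 and 3072 CPM in class II-negative and at 798, 288 and 836 CPM in class II-positive cells (-1.84 ± 0.23, adjusted p = 2.56e-13, edgeR). Pf4 was at 4595, 4734 and 4915 CPM against 1481, 1119 and 1515 CPM (-1.61 ± 0.23), with narrow spread over runs on both sides. Stab1 was at 2403, 2146 and 2867 CPM against 978, 611 and 786 CPM (-1.46 ± 0.23). In class II-positive border cells Stab1 nevertheless lay above the 288, 216 and 233 CPM of P2ry12-positive cells in every run.

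Among the companion genes, F13a1 was at 1046, 1062 and 1426 CPM against 390, 173 and 479 CPM (-1.57 ± 0.25), and Cbr2 at 754, 885 and 646 CPM against 228, 92.3 and 229 CPM (-1.79 ± 0.28). Cd163, at 573, 266 and 717 CPM against 216, 69.2 and 250 CPM, had the smallest change of the 10 (-1.35 ± 0.31, adjusted p = 0.000234, edgeR). Its groups did not overlap in CPM, but the lowest class II-negative value (run 2, 12 UMIs) was close to the highest class II-positive value. Without run 1, edgeR called 5 of 10 members lower (not Cd209f, Cd163, Lyve1, Folr2 or Cbr2, with adjusted p from 0.0624 to 0.113), and the DESeq2 Wald test on all runs called 6 of 10 (not Cd209f, Cd163, Lyve1 or Folr2). Every change kept its sign there.

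**Figure D4:**
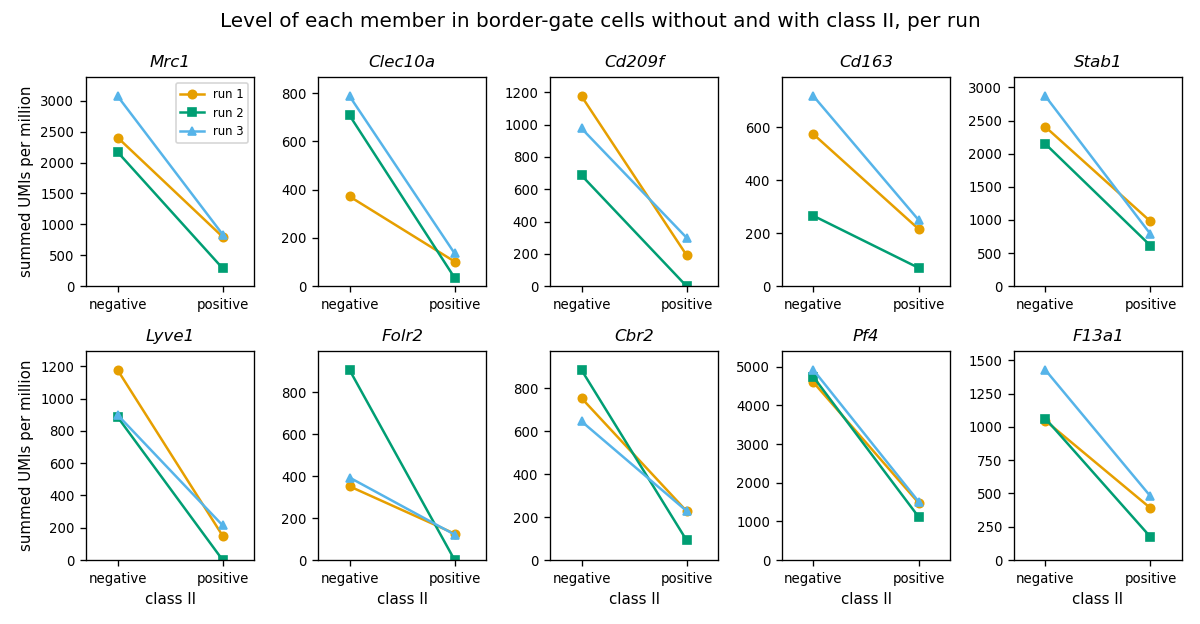
CPM in the summed border cells (y axis, from 0, scaled per gene) without and with class II (x axis), with a line per run. Every line falls from class II-negative to class II-positive, and Cd209f, Lyve1 and Folr2 reach 0 in run 2.

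Other cell markers moved with the split in part. The 10 macrophage genes of the gate summed to 6535, 7168 and 7215 CPM in class II-negative cells and 4012, 4776 and 3394 CPM in class II-positive cells. The 8 microglia genes summed to 6566, 2057 and 1410 CPM against 3251, 3472 and 2865 CPM. Monocyte genes reached 0, 22.1 and 0 CPM in class II-negative and 72.0, 0 and 343 CPM in class II-positive cells, with Ly6c2, Plac8, Chil3, Vcan and Treml4 at 0 throughout. In class II-positive cells the 12 UMIs of run 1 were of Ccr2, and the 48 of run 3 were of Ccr2 and Fn1. Neither gene had a UMI in class II-negative cells, where 1 UMI of Ace was counted in run 2. The dendritic cell list, which includes the lectin Cd209a, stood at 261, 177 and 142 CPM against 42.0, 115 and 92.9 CPM, with Flt3, Clec9a, Ccr7 and Itgae at 0 throughout. Of its other genes, Fscn1 was detected on both sides in every run, and Zbtb46 in class II-negative cells only. Kmo was detected in class II-positive cells of every run and in class II-negative cells of run 1. Xcr1 was detected in class II-positive cells of run 3 only. The choroid plexus list stood at 2735, 31370 and 7.88 CPM in class II-negative cells, against 60.0, 34.6 and 21.4 CPM in class II-positive cells. Its UMIs numbered 272, 1418 and 1 in class II-negative cells, where 1, 1 and 0 cells held at least 2 of its genes. These CPM therefore need not hold for class II-negative cells as a group. With the border cells holding at least 2 markers of any of these 3 lists left out, all 10 members were still called lower, among 56 of 1437 genes tested. Part of the members entered the main fit only through class II-negative cells, so such counts are no support in themselves. The astrocyte list stood at 211, 111 and 78.8 CPM in class II-negative and 53.98, 23.1 and 21.4 CPM in class II-positive cells. Border cells holding an astrocyte marker were left out in an alternative also chosen after seeing the data. All 10 members were called lower there as well, among 56 of 1278 genes tested. Neutrophil, endothelial and red cell genes had no UMI in border cells. Leaving out the border cells with a P2ry12 UMI, 25 of 725 genes tested were called lower, among them 9 of 10 members. Cd163 was not called (-1.30, adjusted p = 0.0951, edgeR).

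Of the other listed scavenger receptors 5 of 15 were tested, with 1 higher and 1 lower and a median log2 change of 0.25, and of the lectins 16 of 31, with 1 higher and 4 lower and a median of -0.25. Over all genes tested the median was 0.0. The 4 lower lectins were Cd209b (-4.49 ± 0.70), Fcna (-3.95 ± 0.52), Cd209a (-3.26 ± 0.68) and Cd209g (-2.69 ± 0.43), and thus 3 relatives of Cd209f and the ficolin. The collectin scavenger receptor Colec12 changed by -1.60 ± 0.47. These 5 genes entered only through class II-negative cells. Higher in class II-positive cells were Cxcl16, a chemokine and lipoprotein receptor (2.71 ± 0.34), and Clec12a (2.50 ± 0.38), which entered only through class II-positive cells. Mgl2, the closest relative of Clec10a, did not pass the test, with 335 ± 102.4 CPM in class II-positive and 525 ± 261 CPM in class II-negative cells (-0.30 ± 0.27, adjusted p = 0.596, edgeR). Whether it differs from Clec10a in this was not tested. Clec10a and Mgl2, and the Cd209 genes among themselves, are closely related copies, and how reads shared between copies were counted is not given in the sources used here, so their separate values are uncertain. Over all genes outside the members, the chemokine Ccl4 (802 ± 555 against 2.63 ± 4.55 CPM), Plbd1, Cd83, H2-DMa and Cd52 led on the class II-positive side. The transcription factor Etv1 (28.6 ± 27.2 against 214 ± 49.9 CPM) was the only gene outside the lists among the 5 that led on the class II-negative side. Apart from Cd52, which passed from both sides, these genes entered only through the side where they were high.

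Co-detection was counted for the 45 pairs of the genes as the cells with both over the cells with either. Over all kept cells the middle pair had 35.3%, with a range from 0.622% to 56.2%, and the lowest pairs were those with Stab1. The highest was Cd163 with F13a1, at 57.5%, 51.7% and 59.3% in runs 1, 2 and 3: 80.0% of the 125 Cd163-positive cells had F13a1, and 66.7% of the 150 F13a1-positive cells had Cd163. Within the border gate the middle pair had 55.1%. Mrc1 with Pf4 was highest there (93.3%, 86.2% and 87.0%), but at 1000 UMIs per cell Stab1 with Pf4 (65.8%) lay above it (63.3%). Cd209f was nested in the frequent genes, since each of the 44 border cells with Cd209f also had Mrc1, Stab1 and Pf4, while 36.1% of the 122 Mrc1-positive border cells had Cd209f. In class II-negative cells the middle pair had 68.2%, in class II-positive cells 32.6% over the 42 pairs with a value in every run. Depth moves such shares. At 1000 UMIs per cell the medians over all 45 pairs were 23.8% over all cells, 34.8% in the border gate, 43.3% in class II-negative and 15.4% in class II-positive cells. There a run in which no cell had either gene of a pair was counted as 0%. This lowers the class II-positive value, because Clec10a, Cd209f, Lyve1, Folr2 and Cbr2 were all undetected in thinned class II-positive cells of run 2. The 15.4% is therefore not the same measure as the 32.6%. The order of pairs over all cells moved too: at 1000 UMIs Cd163 with F13a1 was at 23.8%, and Cd209f with Lyve1 (44.0%) and Mrc1 with Pf4 (38.3%) were highest.

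Genes that tracked the 10 most closely were ranked by the phi coefficient, a correlation of yes-or-no detection, with the presence of at least 3 of the 10 over 19791 cells. The 188 cells with at least 3 of the genes include 114 border, 58 mixed, 10 P2ry12-positive and 6 remaining cells. Ms4a7, a gene of the gate, was first (0.823). It was followed by the lectin Clec4n (0.630), Cp, which encodes ceruloplasmin (0.597), Ifitm2 (0.576), the lectin Mgl2 (0.576), Mndal (0.574), Pla2g7 (0.566) and Ifi203 (0.564). Clec4n was detected in 46.8% of the 188 cells and in 0.0765% of the others. The points share libraries and depth, so these values are descriptions.

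Mixed cells with many of the genes came largely from run 1. Of 50 mixed cells with at least 4 of the 10 genes, 42 were in run 1 and 4 each in runs 2 and 3. In run 1, 23 of these 42 cells (54.8%) held both Xist and Y-linked UMIs, RNA of female and male cells, against 2.86% of P2ry12-positive cells. Their median depth was 11627 UMIs, against 4392 in P2ry12-positive cells. The part of such joint barcodes in the counts of mixed cells was not tested further. With all cells holding both kinds of UMI removed, the middle pair over all cells had 33.1% and the calls of members in both comparisons stayed at 10 of 10. Over all genes tested, 1141 of 11361 were then called higher in border cells and 71 of 1509 lower in class II-positive cells.

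Stray UMIs in P2ry12-positive cells did not keep the proportions of border cells for every gene. Per Pf4 UMI, Mrc1 had 0.528 UMIs in border cells of run 1 and 4.40 in P2ry12-positive cells (exact 95% interval 2.94 to 6.78). In run 2 the ratios were 0.396 and 4.29 (2.37 to 8.31), and in run 3 they were 0.607 and 3.42 (2.15 to 5.63). The intervals did not overlap in any run. Stab1 lay further off, with 293, 356 and 216 UMIs per Pf4 UMI in P2ry12-positive cells against 0.571, 0.482 and 0.567 in border cells. Cd163, Lyve1, Cd209f and F13a1 had ratios whose intervals overlapped those in border cells in each run with a UMI. Folr2 was higher relative to Pf4 in P2ry12-positive cells, at 0.367, 0.429 and 0.333 against 0.0796, 0.132 and 0.0801, with intervals apart in runs 1 and 3. Cbr2 was likewise at 0.60, 0.50 and 0.375 against 0.161, 0.154 and 0.136, with intervals apart in run 1. Clec10a had intervals apart in run 3 only (0.667 against 0.142), where its 16 UMIs came from 6 cells and 1 cell held 7 of them. These intervals cover counting error only.

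**Figure D5:**
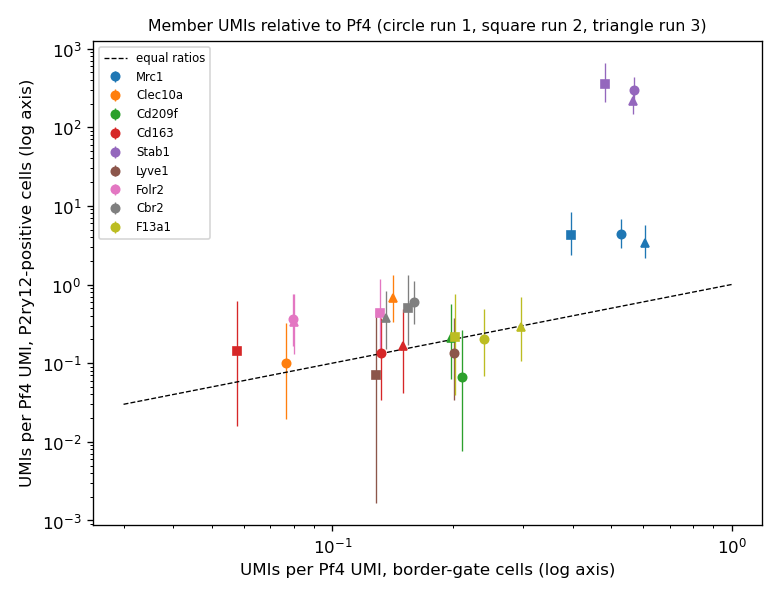
UMIs of each gene per Pf4 UMI in border cells (x axis) and in P2ry12-positive cells (y axis), both on log axes, with a marker per run and exact 95% intervals of the y values. Points on the dashed line have equal ratios; Mrc1 and Stab1 lie above it in all runs, and runs without a UMI (Clec10a and Cd209f in run 2, Lyve1 in run 3) are not drawn.

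P2ry12-positive cells with Mrc1 numbered 111, 52 and 65. Of them 4, 1 and 6 had any of the 8 genes other than Mrc1 and Stab1, that is 3.60% (exact 95% interval 0.990% to 8.97%), 1.92% (0.0487% to 10.3%) and 9.23% (3.46% to 19.02%). Among P2ry12-positive cells without Mrc1 the shares were 1.09%, 0.394% and 0.885%. Only in run 3 did the intervals not overlap, and most Mrc1-bearing P2ry12-positive cells had none of the 8 genes in all 3 runs. The cells with Mrc1 were deeper, with medians of 4776, 3647 and 4237 UMIs against 4385.5, 3425 and 3667 without it. What part depth has in these shares was not tested. At least 2 Mrc1 UMIs were counted in 16, 7 and 11 of the Mrc1-bearing cells, and the highest count was 4. In the 13 cells of the 3 runs that met a gate on T and NK genes, no UMI of the 9 genes other than Stab1 was counted. Of these cells 1, 1 and 2 in runs 1, 2 and 3 had a P2ry12 UMI and were also counted as P2ry12-positive. The 13 cells are thus no separate group, and too few to set a background.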

How the data were processed

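The authors deposited tables of raw UMI counts per gene and barcode for 3 droplet runs. Per the file headers, counting used software version 3.0.2 for run 1 and 3.1.0 for runs 2 and 3. The submitters' processing notes name Cell Ranger, Seurat 4.0 and mm10, with no role given. How barcodes were selected is not given in the sources used here. Total UMIs were 34140879, 24717907 and 24225612. Coordinates are those of GENCODE M21 (GRCm38), in which 99.62% of 31053 gene IDs were found.

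Members and lists were chosen with earlier results of these data known. Cells were gated by counts of fixed genes, with no clustering and no doublet caller. For each run, the UMIs of a population were added up, and the sums were tested with edgeR 4.0.16 (TMM, filterByExpr, glmQLFit, glmQLFTest) with the run as a block, and p-values were adjusted over all genes. Both sums of a run come from 1 library, and across genes their departures from the mean of a population had correlations of 0.502, 0.556 and 0.545 (border) and 0.395, 0.242 and 0.291 (class II). The common dispersion estimates over genes were 0.0184 and 0.0318. The prior degrees of freedom were infinite in both fits, so no gene kept a spread estimate of its own. SEs were taken as the log2 change over the root of F. Gate genes and the 4 class II genes were not tested as results. Other genes were named by a fixed rule: up to 5 per direction by log2 change at an adjusted p under 0.05 and 1 direction in all runs, with at least 50 CPM for genes outside the lists and the members, and the 8 highest phi coefficients. Thinning to 1000 UMIs used fixed seeds.

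On simulated counts with 200 genes changed, 93.5% of genes raised 8-fold and 55.8% of those lowered 8-fold were recovered in the border comparison (11757 genes, 6% of calls false). In the class II comparison (1529 genes) at least 97.2% were recovered at each fold, with 2.91% of calls false. The simulated counts had the common dispersion for every gene and no run effect, so these rates need not hold for the real sums. Alternatives were run with DESeq2 1.42.0, other filters, gates and class II thresholds, and with each run left out. Intervals are 95% exact binomial ones, and 0 counts allow up to 3.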

Additional observations from a re-analysis of the deposited data

Results flagged for a closer look

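Some of the 10 genes were also found in barcodes and cells outside the populations compared, above their level in P2ry12-positive cells. Among barcodes below the cell filters, 20 of 262 in run 1 (7.63%) and 5 of 175 in run 2 (2.86%) held at least 3 of the genes, against 0.0612% and 0.0156% of P2ry12-positive cells. Run 3 had 3 of 148. Among the remaining cells, which met no gate and had no P2ry12 UMI (45 in run 2 and 44 in run 3), Mrc1 was detected in 11.1% in run 2 and 15.9% in run 3. Clec10a was detected in 11.1% and 13.6% of them. Pf4 was detected in 9.09% in run 3 and F13a1 in 8.89% in run 2. Stab1 was less frequent there than in P2ry12-positive cells in each run (15.6%, 17.8% and 29.6%, not tested). The remaining cells also carried class II genes at 29820 and 26180 CPM in these runs and choroid plexus genes at 100200 and 9558 CPM. What part these cells have in the detections was not tested.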

How the results depend on the processing

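Border against P2ry12-positive cells kept all 10 members higher under each of the 15 alternatives run. In the main fit only Mrc1 and Stab1 could be tested from the P2ry12-positive side alone, so this count is no support in itself. The genes called fell from 2350 to 883 with mixed cells counted as border cells, and to between 1594 and 1692 with a run left out. The DESeq2 Wald test split its calls differently (67.6% higher, against 49.4%), with a median log2 change over its genes of 0.51 against -0.19. For class II-positive against class II-negative border cells 211 genes were called. The count was 99 with DESeq2, 84 with at least 4 panel genes, 87 with class II from 1 UMI, and 107 without the run as a block (no replicate block). It was 43 without cells holding a P2ry12 UMI 140 without cells holding markers of other cell types, and 182 without cells holding an astrocyte marker, all chosen after seeing the data. Leaving out a run gave 34 (run 1), 220 (run 2) and 80 (run 3). Members called lower numbered 10, and 6 with DESeq2, 9 without the block (Cd163 at an adjusted p of 0.0548), 9 with class II from 1 UMI (Folr2 -1.72, adjusted p = 0.0722, edgeR), 9 without cells holding a P2ry12 UMI, and 5, 10 and 9 without runs 1, 2 and 3. Counting mixed cells as border cells adds 886 cells, mostly rich in microglia genes. Under it 725 genes were called, 0 members were called lower, 6 were called higher and all changed sign: Mrc1 1.40, Clec10a 0.81, Cd209f 0.36, Cd163 1.63, Stab1 0.78, Lyve1 0.37, Folr2 0.96, Cbr2 1.38, Pf4 1.67 and F13a1 1.44 on the log2 scale. The median stray detection over the 10 genes in P2ry12-positive cells was 0.0944%, and 0.0187% and 0.0308% after thinning to 1000 and 2000 UMIs. Without a run it ranged from 0.0847% to 0.114%. The median pair overlap of 35.3% was 23.8% after thinning and 30.8% with the stricter cell filter.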
